A study of Mus musculus with 10 samples.

Results

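Polyadenylated RNA was compared between pools of mouse morulae with and without Jarid2. Of the 10 libraries of the series, the 4 pooled ones were used: 2 control pools and 2 Jarid2 knockout pools, each of about 20 embryos and chosen by their labels alone. All 4 came from embryos of the strain combination BDF1 x PWK, which joins a laboratory hybrid with a strain derived from wild mice. The labels call the first genotype control and the second Jarid2 knockout. They state neither the exons removed nor how the knockout was made, nor what the control embryos carry, and the sex of the pooled embryos is not given. The morula is the ball of compacting cells that comes before the blastocyst, with its outer trophectoderm and its inner cell mass. The series title places the RNA data beside a study of methylation of histone H3 at lysine 27 in early embryos.

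Polycomb repressive complex 2 (PRC2) methylates this lysine through the catalytic subunits Ezh2 or Ezh1, held together by Eed and Suz12. Jarid2 is an accessory subunit that helps to place the complex on chromatin. It belongs to the Jumonji family by sequence but lacks demethylase activity. In the early mouse embryo, H3K27 trimethylation inherited from the oocyte keeps a small group of genes silent on the maternal allele. Xist, the RNA that coats and silences an X chromosome, is one of them.

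Total counts were 42906533 and 47458704 in control pools 1 and 2 and 49861963 and 41003216 in knockout pools 1 and 2. Across 16259 tested genes, which are not independent replicates, log2 levels correlated at 0.986 to 0.994 between any pair of pools. The closest pair crossed the genotypes: the median gene differed by 0.17 on the log2 scale between control pool 1 and knockout pool 1. The gap was 0.21 between the controls and 0.24 between the knockouts, and the widest was 0.29, between control pool 1 and knockout pool 2. Markers of trophectoderm, inner cell mass and primitive endoderm were present in every pool. The summed level of 9 cumulus and granulosa cell markers lay between 0.0981 and 0.363 CPM (counts scaled to library size), and 6 of them, such as Has2 and Fshr, had 0 counts in all. In pools, fewer cells of a type and less RNA per cell cannot be told apart.

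The targeted gene came first. Jarid2 (chromosome 13, 44729474 to 44921643, GRCm38) had 465.5 and 501.5 CPM in the control pools against 182.7 and 146.8 CPM in the knockout pools. The genotypes did not overlap, and RNA of the gene remained in both knockout pools. Jarid2 fell from 483.5 ± 25.4 to 164.8 ± 25.4 CPM (SD, n = 2). Its log2 change was -1.55, with an SE of 0.18 and an adjusted p of 0.0399 in edgeR's quasi-likelihood test. The removed exons are not named in the labels, and the table sums reads over all exons, those left in place included. The call was lost under 7 of 14 alternatives, with the log2 change between -1.57 and -1.47 in those, and DESeq2 gave an adjusted p of 5.19e-11.

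No other PRC2 gene passed the test. Of 17 subunits and cofactors, 3 were higher in both knockout pools than in both controls (17.6%) and 2 were lower (11.8%), Jarid2 among them. Of all genes 19.1% were higher and 16.5% lower in this way. The median log2 change of the list was -0.01. Ezh2 had 176.4 and 199.9 CPM in controls and 181.6 and 214.7 CPM in knockouts, and Suz12 had 289.6 and 289.1 against 295.5 and 321.4 CPM. Values of Ezh2 overlapped, and the distance between the genotypes in Suz12 was smaller than the spread between the knockouts. Eed (log2 -0.30, SE 0.20), Ezh1 (-0.13, SE 0.22) and the accessory subunit gene Mtf2 (-0.26, SE 0.18) also overlapped, while Aebp2, another accessory subunit, was at 0.20 (SE 0.16) and Lcor at 0.28 (SE 0.17). In the list of 30 subunits of PRC1, the complex that ubiquitylates histone H2A, 4 lay above (13.3%) and 1 below (3.33%), with a median of 0.01. Its member with the smallest p was Phc1, with 5.6 and 6.8 CPM in controls and 9.5 and 9.0 CPM in knockouts (log2 0.57, SE 0.25, unadjusted p = 0.0452).

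Across all genes the difference between the genotypes was small. Jarid2 was the only gene of 16259 past 5% in edgeR (0.00615%), and 0 genes were higher (0%) against 1 lower (0.00615%). At an unadjusted p under 0.05 lay 1164 genes (7.16%), of which 746 were higher in knockouts (4.59%) and 418 lower (2.57%). The higher share of these was 64.1%, against 75.3% with upper quartile scaling and 81.4% with library totals only. Under DESeq2, 64 genes were higher (0.394%) and 7 lower (0.0431%). Of the 64, 55 had knockout pool 2 above knockout pool 1, and 33 had a mean under 5 CPM. Under limma-voom 0 were higher (0%) and Jarid2 was lower (0.00615%). The median gene was at 0.01 on the log2 scale, and 81.3% of genes differed by less than 1.5-fold. Both knockout pools lay above both controls for 3109 genes (19.1%) and below them for 2682 (16.5%). No label ties the pools to separate litters or collections. The p-values then weigh genotype only against how far these pools of a genotype lie apart, and that distance may be technical.

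Besides Jarid2, the gene with the smallest p was Btg2, which encodes an antiproliferative protein and is a target of the transcription factor p53. Its values were 58.2 and 54.7 CPM in controls and 119.2 and 146.3 CPM in knockouts, and the lower knockout was well above the higher control. The log2 change was 1.23 (SE 0.18), with an adjusted p of 0.182 in edgeR and 6.35e-06 in DESeq2. Anxa8, a calcium-dependent membrane-binding annexin, had 12.0 and 6.6 CPM in controls and 29.8 and 25.1 CPM in knockouts (log2 1.57, SE 0.27). The adhesion molecule gene Nectin4 had 3.4 and 3.7 against 9.5 and 15.7 CPM (1.81, SE 0.31). Amotl1, of the angiomotin family that holds the Hippo effector Yap in the cytoplasm, had 2.9 and 2.0 against 7.7 and 8.3 CPM (1.72, SE 0.31). Values of these genes did not overlap, and their adjusted p in edgeR was 0.293. The pheromone peptide gene Esp24 was low everywhere, with 0.3 CPM in each control and 2.8 and 3.6 CPM in the knockouts (3.22, SE 0.52), and the noncoding 2310040G24Rik was at 64.6 and 50.3 against 116.0 and 106.1 CPM (0.95, SE 0.18).

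Among genes lower in knockouts, Spp1 had the smallest p after Jarid2. It encodes osteopontin, a secreted glycoprotein that binds integrins. Controls were at 12.4 and 17.4 CPM and knockouts at 5.0 and 4.1 CPM (log2 -1.72, SE 0.27, edgeR adjusted p = 0.279). Mgarp, a mitochondrial protein gene, had 140.9 and 126.6 CPM against 74.3 and 68.6 CPM (-0.90, SE 0.17). Knockout pool 2 was the lower of the knockouts in both. Glrx, the glutaredoxin gene, had 160.0 and 146.4 CPM against 82.7 and 46.5 CPM (-1.24, SE 0.24). Calr4, a relative of calreticulin, had 16.2 and 25.4 against 8.9 and 8.3 CPM (-1.28, SE 0.26), and the transcriptional repressor gene Tgif1 had 74.2 and 77.6 against 46.3 and 45.0 CPM (-0.73, SE 0.17). With Jarid2 and Plin2, which coats lipid droplets (177.9 and 152.9 against 110.1 and 73.8 CPM), these are the 7 genes that DESeq2 called lower; Plin2 was chosen after its values were seen.

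**Figure D1:**
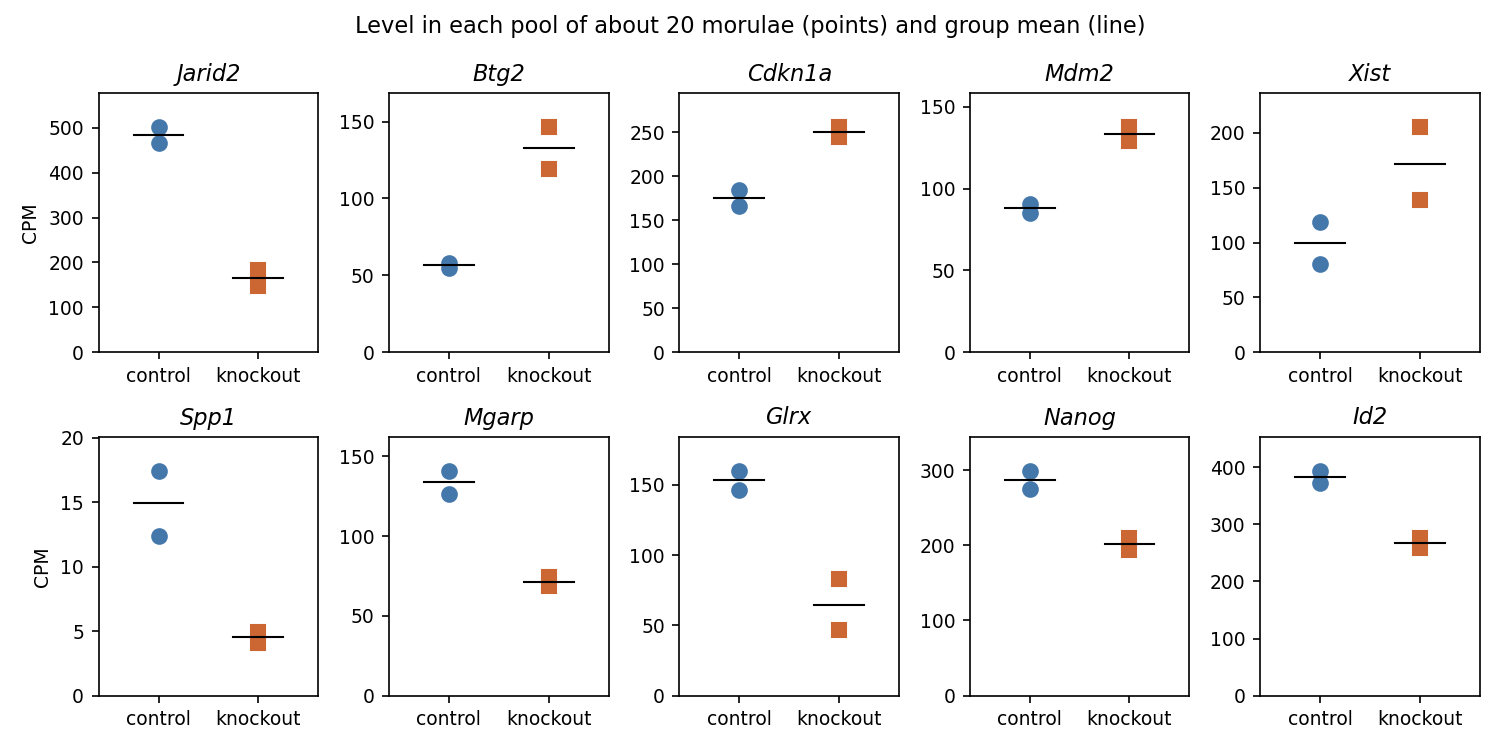
Level of 10 genes in each pool (circles: control, squares: knockout; vertical axis in CPM from 0) with the mean of each genotype as a line. In each of the 10 panels the genotypes do not overlap; Jarid2 lies at 465.5 and 501.5 CPM in controls and at 182.7 and 146.8 CPM in knockouts.

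Chromosome 13, which carries Jarid2, stood apart from the other chromosomes; this was seen after the data were examined. Of its 582 tested genes, 212 lay below both controls in both knockouts (36.4%, against 16.5% of all genes) and 51 above (8.76% against 19.1%). It held 3.58% of the genes tested, 12.4% of those lower at an unadjusted p under 0.05 (52 genes) and 1.34% of those higher (10 genes). Among the 343 of its genes with a mean of at least 5 CPM, Jarid2 left out, the median log2 change was -0.22, and 291 were negative. On the other 18 autosomes and X the median of such genes ran from -0.08 to -0.02.

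The shift was present in each of the 4 comparisons of a knockout with a control pool. Knockout pool 1 had a median ratio of 0.904 to control pool 1 and 0.922 to control pool 2. Knockout pool 2 was lower, at 0.808 and 0.813. The control pools stood at 0.969 to each other on this chromosome. In log2 terms knockout pool 2 lay at -0.31 and -0.30, where the other chromosomes ran from -0.08 to 0.03 in the same comparisons, and knockout pool 1 at -0.15 and -0.12, where they ran from -0.08 to 0.02. Chromosome 13 without Jarid2 supplied 3.26% and 3.24% of the counts of genes with a known chromosome in controls, and 3.08% and 2.74% in knockouts. The median lay 0.18 under that of the other autosomes, 0.08 under it without knockout pool 2 and 0.28 under it without knockout pool 1.

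**Figure D2:**
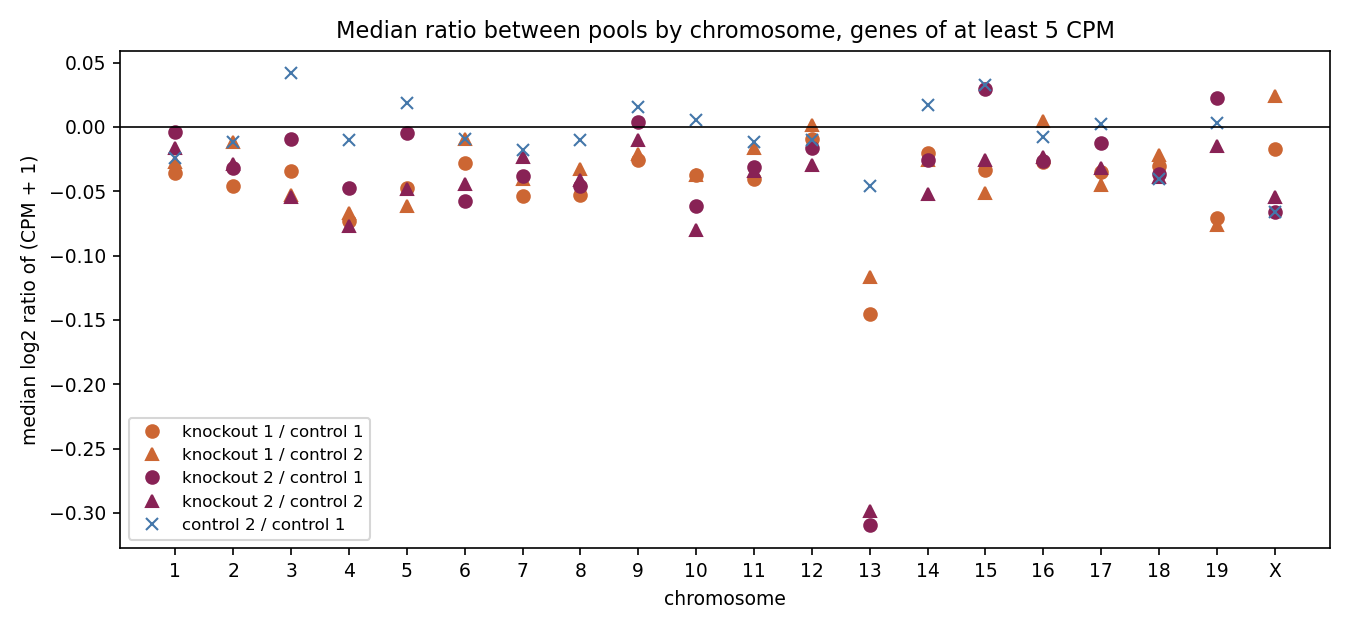
Median log2 ratio of (CPM + 1) between pools for genes of at least 5 CPM, by chromosome (horizontal axis); orange symbols compare knockout pool 1, purple symbols knockout pool 2 and crosses control pool 2 with a control. Chromosome 13 is at -0.15 and -0.12 for knockout pool 1 and at -0.31 and -0.30 for knockout pool 2, below every other chromosome.

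Genes lay low on both sides of Jarid2. Of the 97 genes between the centromere and Jarid2, 33 were below both controls in both knockouts (34.0%), with a median of -0.17. Of the 246 beyond it, 125 were (50.8%), with a median of -0.25. For knockout pool 2 the medians were -0.17 and -0.14 on the near side and -0.33 and -0.37 on the far side. For knockout pool 1 they were -0.13 and -0.06 against -0.15 and -0.13. The step between the sides was thus wider in knockout pool 2. Control pool 2 was itself 0.09 below control pool 1 on the near side and 0.03 below it on the far side. All 9 windows of 10 Mb with at least 20 genes had a negative median, from -0.30 to -0.09. No test of a chromosome was made, and neither the copy number nor the strain origin of the chromosome was measured.

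**Figure D3:**
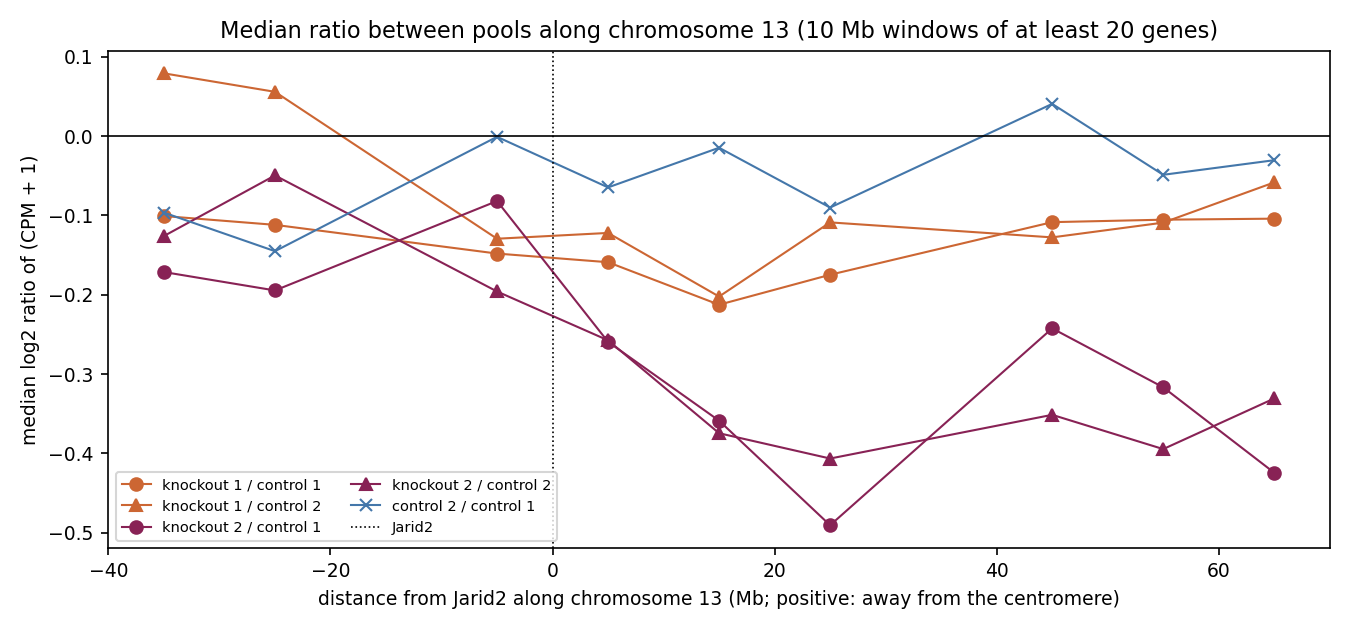
Median log2 ratio of (CPM + 1) between pools along chromosome 13, in windows of 10 Mb with at least 20 genes of at least 5 CPM, against the distance from Jarid2 (dotted line). Beyond Jarid2 both comparisons of knockout pool 2 lie from -0.49 to -0.24, and those of knockout pool 1 from -0.21 to -0.06.

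Several genes described here lie on this chromosome. Glrx is at 75839868 to 75850154. Elovl7, a fatty acid elongase gene, had 130.2 and 212.2 CPM in controls and 104.3 and 78.1 CPM in knockouts (log2 -0.91, SE 0.24). The lipid phosphatase gene Plpp1 had 76.6 and 106.4 against 59.6 and 45.5 CPM (-0.80, SE 0.21). Akr1e1, a reductase gene near the centromere, had 28.1 and 26.5 against 17.0 and 15.8 CPM (-0.74, SE 0.19), and the nucleoside transporter gene Slc28a3 had 98.3 and 131.8 against 78.7 and 62.8 CPM (-0.70, SE 0.20). Both knockouts were below both controls in all 5. After Jarid2, these genes had the smallest p of the chromosome among genes lower in knockouts, and Glrx apart they were chosen after their values were seen. What part of their difference belongs to the chromosome as a whole was not tested. The p53 target Plk2, also on chromosome 13, was at 23.9 and 23.8 CPM in controls and 46.2 and 42.5 CPM in knockouts.

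The transcription factor p53 is stabilised when DNA is damaged or cells are stressed. It induces genes that halt the cell cycle (Cdkn1a, Btg2, Ccng1), genes that promote cell death (Fas, Pmaip1, Bbc3) and its own inhibitor Mdm2. It binds a response element made of a pair of copies of a decamer. Of the 12 listed targets with that decamer in the 250 bases before their start, 7 lay above both controls in both knockouts. The other 5 overlapped, Bax and Sesn1 among them. The share above was close to the 55.0% of all 60 tested targets, with or without a decamer. Of all genes 19.1% lay above. The sequences of 3 of the 7 are shown as examples, chosen after their values were seen: the cell cycle genes Cdkn1a and Ccng1 and the p53 inhibitor Mdm2. They are read 5′ to 3′ on the gene's strand from RefSeq promoters of GRCm38.p6, with the decamers in capitals, which begin 73 and 51 bases before the gene in Cdkn1a, 186 in Mdm2 and 185 in Ccng1.
Cdkn1a (chr17:29090729-29090978, plus strand): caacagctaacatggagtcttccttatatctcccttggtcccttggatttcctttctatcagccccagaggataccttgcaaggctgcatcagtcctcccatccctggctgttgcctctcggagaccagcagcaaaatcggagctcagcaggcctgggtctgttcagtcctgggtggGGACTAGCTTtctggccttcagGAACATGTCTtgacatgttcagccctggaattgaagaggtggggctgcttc
Mdm2 (chr10:117710759-117711008, minus strand): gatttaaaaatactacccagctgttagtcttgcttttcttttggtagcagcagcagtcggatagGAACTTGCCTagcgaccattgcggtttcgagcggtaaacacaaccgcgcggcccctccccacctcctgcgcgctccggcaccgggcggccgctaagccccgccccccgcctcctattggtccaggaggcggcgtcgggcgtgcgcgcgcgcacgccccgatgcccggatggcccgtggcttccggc
Ccng1 (chr11:40755287-40755536, minus strand): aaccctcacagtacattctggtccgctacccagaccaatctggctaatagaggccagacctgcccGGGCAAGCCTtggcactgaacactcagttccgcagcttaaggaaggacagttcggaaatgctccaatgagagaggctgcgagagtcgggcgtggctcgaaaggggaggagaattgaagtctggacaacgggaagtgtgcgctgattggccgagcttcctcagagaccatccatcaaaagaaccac
The search took the p53 decamer consensus by name, which reads alike on both strands, and a pair of decamers within 13 bases as a full element. Of 32851 promoters of this length, 7.13% held a decamer and 0.0639% a full element. Counted by gene over any of its promoters, 7.43% of 11804 tested genes held a decamer and 0.0593% a full element. In the p53 list, counted the same way, 12 of 50 genes with a promoter held a decamer (24%) and 1 a full element (2%), that of Cdkn1a. A match describes the letters of these windows and not binding in these embryos.

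Jarid2 apart, no gene of any list described here passed 5% in edgeR. Target genes of p53 lay higher in both knockout pools more often than genes at large. The list was known from earlier results of these data to lie high, so its count is a description and not independent support. Of 60 tested targets, 33 lay above both controls in both knockouts (55.0%, against 19.1% of all genes) and 5 below (8.33% against 16.5%). The median log2 change was 0.42, against 0.01 for all genes. In edgeR 25 were higher at an unadjusted p under 0.05 (4.59% of all genes were) and 1, the tetraspanin gene Cd82, was lower (-0.90, SE 0.33; 2.57% of all genes were). DESeq2 called 7 members higher, against 0.394% of all genes. The median was 0.28 without knockout pool 2 and 0.47 without knockout pool 1, and between 0.39 and 0.51 under the other alternatives.

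Cdkn1a, the cyclin-dependent kinase inhibitor p21, had 184.7 and 166.5 CPM in controls and 244.6 and 255.6 CPM in knockouts (log2 0.51, SE 0.16, edgeR adjusted p = 0.570). Mdm2, the ubiquitin ligase that degrades p53, had 85.3 and 90.8 CPM against 129.2 and 137.5 CPM (0.60, SE 0.16, edgeR adjusted p = 0.501). In both genes the gap between the genotypes was wider than the gap between the pools of either. Ccng1, a cyclin that acts back on p53, had 247.9 and 216.4 CPM against 314.4 and 332.0 CPM (0.48, SE 0.17). Plk2, a polo-like kinase, differed by 0.89 in log2 (SE 0.18, edgeR adjusted p = 0.297, DESeq2 adjusted p = 0.0119). The death receptor gene Fas had 1.6 and 1.3 CPM in controls and 4.5 and 7.3 CPM in knockouts (2.04, SE 0.39). Trp73, the p53 relative, was near absent in controls at 0.05 and 0 CPM and had 0.9 and 1.7 CPM in knockouts.

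The other targets that DESeq2 called were Zmat3 (12.3 and 16.2 CPM against 26.2 and 33.0 CPM), Ptpn14 (1.0 and 0.9 against 3.1 and 4.6 CPM), Eda2r (26.5 and 24.9 against 45.5 and 45.9 CPM) and Trp53inp1 (88.9 and 83.3 against 135.5 and 164.8 CPM). They were chosen after their values were seen. Ptpn14 encodes a phosphatase, Eda2r a receptor of ectodysplasin and Trp53inp1 a cofactor of p53 in cell death. The 3 most abundant members did not share a direction. Rps27l was at a log2 change of 0.19 (SE 0.17), the glutathione peroxidase gene Gpx1 at -0.45 (SE 0.21) and the metabolic regulator gene Tigar at -0.31 (SE 0.18). Trp53 itself had 95.5 and 84.4 CPM in controls and 106.4 and 74.8 CPM in knockouts, which overlap (0.01, SE 0.20). Of 25 genes of the apoptosis machinery, 4 lay above and 6 below (median 0.00). Among 34 genes of DNA damage sensing and repair, 5 lay above and 7 below (median 0.01). For comparison, 19.1% of all genes lay above and 16.5% below, with a median of 0.01.

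**Figure D4:**
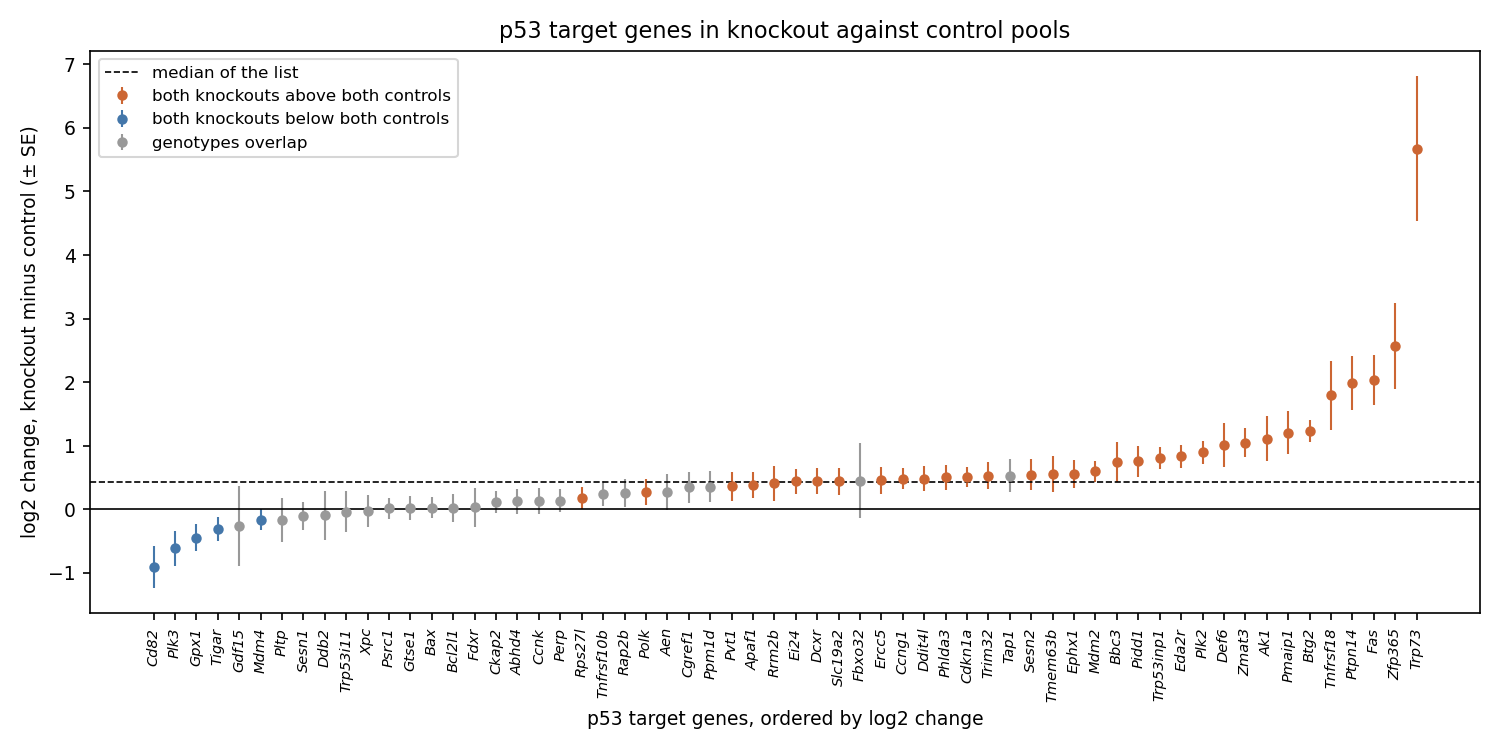
Log2 change (knockout minus control, ± SE) of the 60 tested p53 target genes, ordered by size; orange points have both knockouts above both controls, blue points below, grey points overlap. Above 0 lie 49 of 60 points, and the dashed line is the list's median of 0.42.

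Chaperones, folding enzymes and stress sensors of the endoplasmic reticulum (ER) form a list of 24 genes. Of these 13 were below both controls in both knockouts (54.2%, against 16.5% of all genes) and 1 above, with a median of -0.27. Xbp1, a transcription factor of the unfolded protein response, had 117.5 and 96.3 CPM in controls and 75.9 and 55.8 CPM in knockouts (log2 -0.70, SE 0.20). Sdf2l1, an ER-resident cofactor of the chaperone BiP, had 38.5 and 48.2 against 29.8 and 28.5 CPM (-0.57, SE 0.19). The disulfide isomerase gene Pdia6 was at -0.45 (SE 0.18) and Edem1, of ER-associated degradation, at -0.38 (SE 0.19). In the abundant Hspa5, which encodes BiP, the values were 1060 and 1149 CPM against 940 and 999 CPM (-0.19, SE 0.17), and Hsp90b1 was at -0.22 (SE 0.17). At an unadjusted p under 0.05, 3 members were lower and 0 higher, and 0 passed 5% in DESeq2. Without control pool 2, the higher control in each of these genes but Xbp1, the median was -0.12, against 0.054 for all genes.

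In the lysosomal list 13 of 34 genes lay below (38.2%) and 0 above, with a median of -0.20. Of all genes 16.5% lay below. The share was 22.8% for genes with a mean of 20 to 100 CPM and 23.8% for those with 100 CPM or more. The ceramidase gene Asah1 had 220.8 and 349.3 CPM in controls and 195.6 and 160.1 CPM in knockouts (log2 -0.68, SE 0.22). Cathepsin C (Ctsc) had 699.3 and 1036 against 697.1 and 412.8 CPM (-0.64, SE 0.26), and the knockouts were far apart. Ppt1 was at -0.57 (SE 0.21) and Gm2a at -0.47 (SE 0.20). Without control pool 2 the median of the list was -0.05, against 0.054 for all genes in that setting, so its size rests in part on that pool. Of 26 genes of cholesterol synthesis 6 lay below (23.1%, near the share of abundant genes) and 0 above, with a median of -0.19. Among the 6, Nsdhl had 34.0 and 41.6 CPM against 22.8 and 26.6 CPM (-0.62, SE 0.20). Insig1 had 101.4 and 122.8 against 80.8 and 80.3 CPM (-0.48, SE 0.17). Without control pool 2 the cholesterol median was -0.0079, with 13 genes positive and 13 negative, against 0.054 for all genes. Much of the low side thus rests on that pool. Proteasome subunits were negative in 31 of 31 genes (median -0.18), but only 6 did not overlap (19.4%, all below, near the share of all genes). Psmd11 had 636.5 and 492.4 CPM in controls and 510.2 and 366.2 CPM in knockouts (-0.36, SE 0.21), and Psmc4 was at -0.34 (SE 0.20). Their median was -0.06 without knockout pool 2 and -0.06 without control pool 1. Of 81 cytosolic ribosomal protein genes, 32 lay above (39.5%, against 19.1% of all genes) and 2 below (2.47%), with a median of 0.09. Without control pool 2 their median was 0.040, under the 0.054 of all genes in that setting. Rps21 had 488.2 and 500.3 CPM against 531.3 and 654.6 CPM (0.26, SE 0.17) and Rps12 was at 0.35 (SE 0.21). Near-identical pseudogenes can share reads with these genes.

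**Figure D5:**
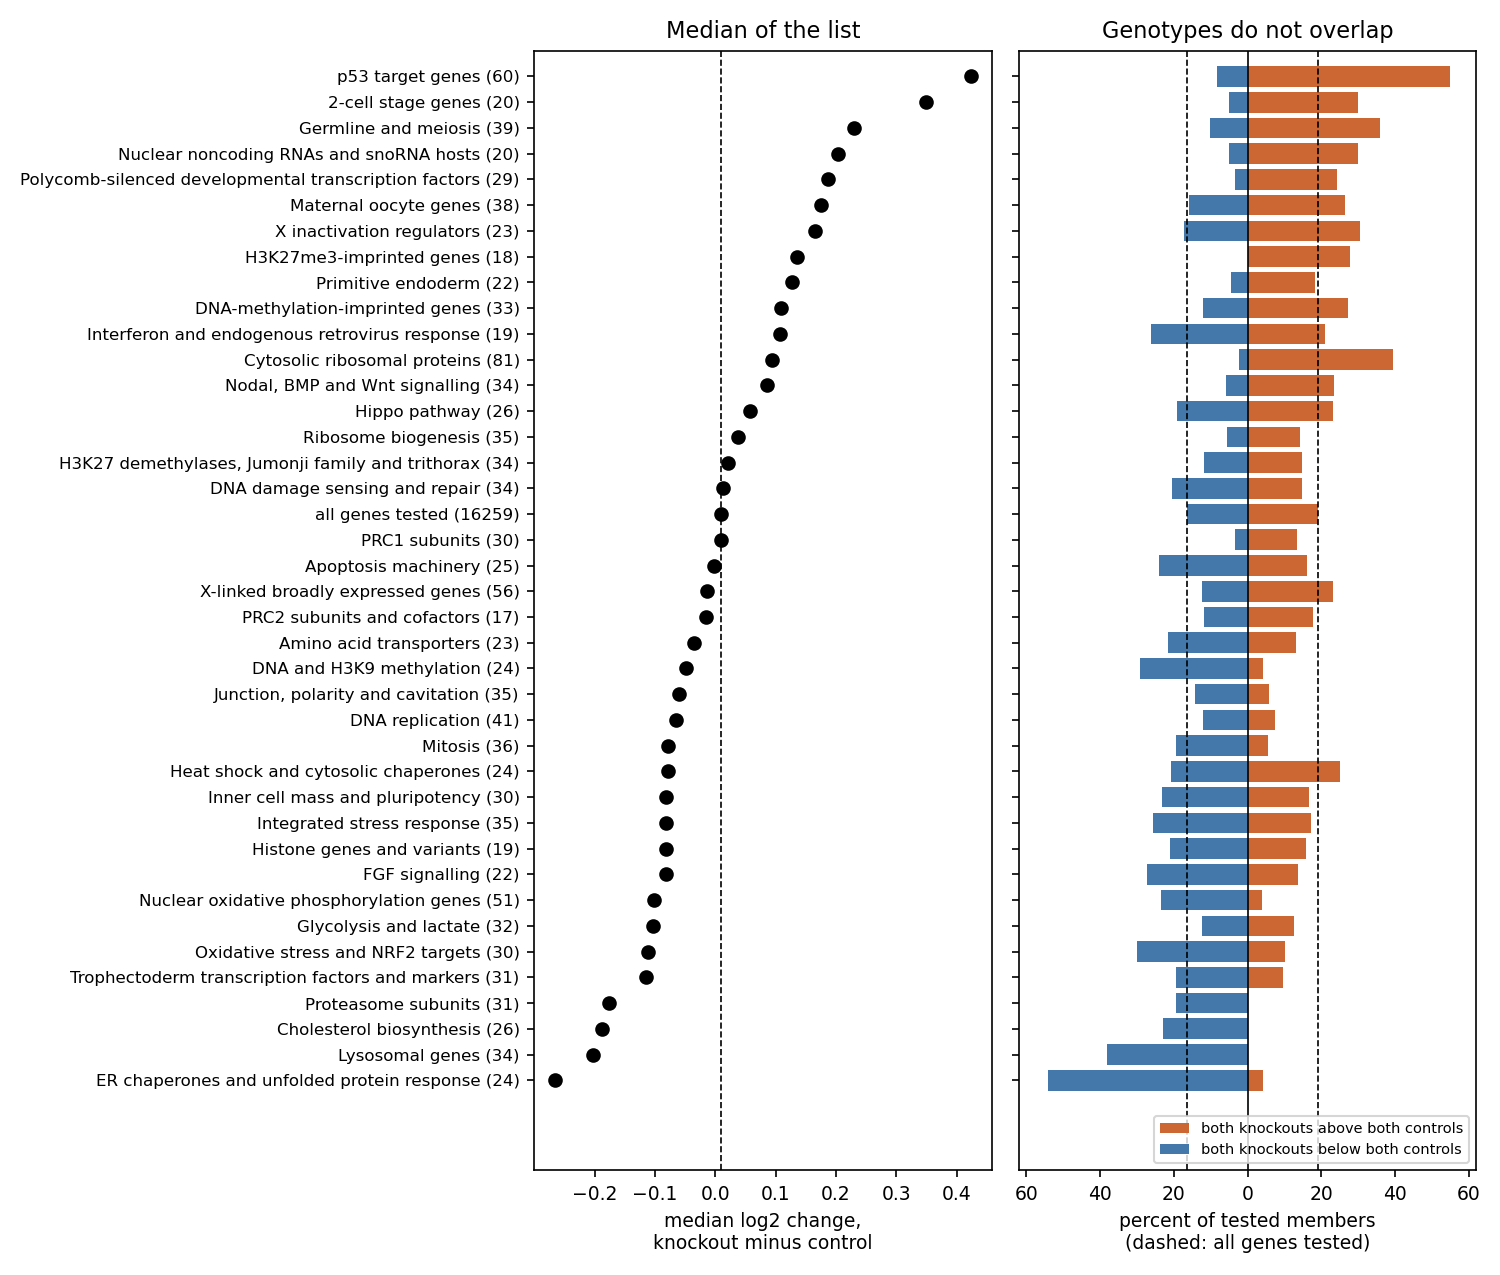
Left, median log2 change (knockout minus control) of each gene list with at least 15 tested members (number in parentheses). Right, percent of members with both knockouts above (orange) or below (blue) both controls; dashed lines mark all genes (median 0.01, 19.1% above, 16.5% below). The p53 targets are highest at 0.42 and the ER chaperones lowest at -0.27.

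Imprinted genes were examined because Jarid2 acts with PRC2. Counts do not separate the parental alleles. Of 18 tested genes imprinted through H3K27me3, 5 lay above both controls in both knockouts (27.8%, against 19.1% of all genes) and 0 below, with a median of 0.14. The median was 0.28 without knockout pool 1 and 0.28 without control pool 2, but 0.0052 without knockout pool 2 (9 genes positive, 9 negative) and 0.049 without control pool 1. Xist had 118.6 and 80.3 CPM in controls and 138.4 and 205.1 CPM in knockouts (log2 0.79, SE 0.23, edgeR adjusted p = 0.549). Both knockouts were above both controls, and knockout pool 2 was the highest. Reads of the antisense gene Tsix cannot be told apart from it. The summed level of 4 Y-linked genes was 125.5 and 129.4 CPM in controls and 119.5 and 114.5 CPM in knockouts, and the part of the sex ratio in the Xist values was not tested. The other classical members had values that overlapped between genotypes: Gab1 at 0.03 (SE 0.18), Sfmbt2 at 0.14 (SE 0.24), Slc38a4 at -0.36 (SE 0.21), Jade1 at 0.08 (SE 0.20) and Smoc1 at 0.15 (SE 0.29). The homeobox gene Otx2 had 10.6 and 9.6 CPM in controls and 16.9 and 22.1 CPM in knockouts (0.95, SE 0.23, DESeq2 adjusted p = 0.0447). The cytokine receptor gene Tnfrsf1a was at 0.5 and 0.4 against 1.0 and 3.5 CPM.

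Of 33 genes imprinted through DNA methylation, 9 lay above (27.3%) and 4 below (12.1%). The shares were 19.1% and 16.5% for all genes, and 27.4% and 11.7% for all genes with a mean of 1 to 5 CPM. Only 14 of the 33 reached 10 CPM in at least 2 pools. Those with the smallest p are neighbours in the Kcnq1 domain of chromosome 7. Phlda2, which restrains placental growth, had 2.5 and 3.6 CPM in controls and 7.0 and 11.2 CPM in knockouts (log2 1.55, SE 0.34, DESeq2 adjusted p = 0.00747). Cdkn1c, a cyclin-dependent kinase inhibitor, had 2.4 and 2.7 against 3.8 and 10.7 CPM (SE of the log2 change 0.46, unadjusted p = 0.00735). The tetraspanin gene Cd81 had 2.4 and 5.0 against 7.6 and 16.7 CPM (1.68, SE 0.42, DESeq2 adjusted p = 0.0134). Kcnq1ot1, the noncoding RNA of the domain's control region, had 30.8 and 26.2 against 38.1 and 50.1 CPM (0.63, SE 0.20). In each of these 4 genes knockout pool 2 was the highest pool. A set of 19 genes took in the domain and neighbours outside it, such as Igf2, Dhcr7 and Nadsyn1. It was chosen after its values were seen. Of its 11 tested genes 5 lay above (the 4 genes just given and Osbpl5, at 0.77 with SE 0.36). Below lay 3, Nadsyn1 among them. Of all genes 19.1% lay above and 16.5% below. Cd81 overlaps R74862, and Kcnq1ot1 lies within Kcnq1, so their reads could be shared.

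Of 54 developmental transcription factor genes that Polycomb keeps silent in later cells, 29 passed the filter on low counts. Among these 7 lay above (24.1%, against 19.1% of all genes) and 1 below (3.45% against 16.5%), with a median of 0.19. Without control pool 1 the median was 0.050 and without knockout pool 2 it was 0.083. Single members ran from -1.74 to 1.61 in log2. After Otx2 the member with the smallest p was Gata4, a factor of primitive endoderm, with 0.5 and 0.6 CPM in controls and 1.9 and 1.4 CPM in knockouts (log2 1.55, SE 0.52). Genes with a mean of 0.5 to 1 CPM had a median of 0.26 in these pools, whatever their list, and those with 1 to 5 CPM a median of 0.15.

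Lineage lists held genes lower in both knockouts, and no member passed 5% in edgeR. Of all genes 19.1% lay above both controls in both knockouts and 16.5% below. Among genes of at least 5 CPM these shares were 13.1% and 21.1%. The summed level of 6 inner cell mass markers was 427.4 and 466.2 CPM in controls and 328.2 and 355.5 CPM in knockouts. That of 6 trophectoderm markers was 1371 and 1701 against 1078 and 1310 CPM, with no overlap in either. Such sums rest mostly on abundant members, such as Nanog and Krt18. Esrrb (28.4 and 32.3 against 30.0 and 38.0 CPM), Tdgf1 (15.4 and 24.7 against 18.1 and 24.6 CPM) and Tead4 (86.2 and 92.5 against 76.0 and 98.0 CPM) overlapped. Fgf4 was at 4.8 and 7.9 against 4.7 and 4.5 CPM. The sum of 4 primitive endoderm markers overlapped, at 250.2 and 313.0 against 297.2 and 341.4 CPM, and it rests mostly on Gata6. Sox17 (0.343 and 2.15 against 0.162 and 0.635 CPM) and Pdgfra (13.5 and 14.9 against 13.8 and 12.0 CPM) overlapped, while Gata4 was higher in both knockouts. Trophectoderm is marked by Cdx2 and Gata3, the inner cell mass by Nanog and Sox2, and primitive endoderm by Gata6. Of 31 trophectoderm genes 3 lay above (9.68%) and 6 below (19.4%). Their median was -0.11, but 0.01 without control pool 2 and 0.02 without knockout pool 1. Cdx2 had 23.4 and 29.6 CPM in controls and 18.2 and 21.8 CPM in knockouts (log2 -0.41, SE 0.21), and Gata3 overlapped (-0.02, SE 0.22). Id2, an inhibitor of helix-loop-helix factors found in outer cells, had 393.7 and 371.6 against 275.8 and 259.2 CPM (-0.52, SE 0.16). The prostaglandin synthase gene Ptges had 203.0 and 278.6 against 154.3 and 157.5 CPM (-0.63, SE 0.19). The keratin genes Krt18 and Krt8, which form the filaments of trophectoderm, were also below in both knockouts. Krt18 had 417.2 and 582.9 against 307.9 and 393.2 CPM (-0.51, SE 0.20). Krt8 had 233.7 and 306.8 against 181.2 and 231.8 CPM (-0.39, SE 0.19). In both the gap between the genotypes was smaller than the gap between the pools of either.

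In the inner cell mass and pluripotency list, 5 of 30 genes lay above (16.7%) and 7 below (23.3%), with a median of -0.08. Of all genes 19.1% lay above and 16.5% below. Nanog had 275.4 and 299.0 CPM in controls and 194.0 and 209.7 CPM in knockouts (log2 -0.51, SE 0.16, edgeR adjusted p = 0.570), with no overlap. Pou5f1 had 89.5 and 82.1 against 72.5 and 61.8 CPM (-0.35, SE 0.17), while Sox2 overlapped (-0.42, SE 0.30). The growth factor gene Gdf3 was at -0.57 (SE 0.21), and Klf17, a gene of the early cleavage stages, was higher at 7.6 and 8.1 against 12.4 and 16.6 CPM (0.88, SE 0.24). Of 22 genes of primitive endoderm 4 lay above (18.2%) and 1 below (4.55%). That gene, Apoe, the apolipoprotein, had 404.9 and 595.4 against 318.6 and 255.6 CPM (-0.80, SE 0.21), and Gata6 overlapped (0.20, SE 0.18). Of 22 genes of fibroblast growth factor signalling 3 lay above (13.6%) and 6 below (27.3% against 16.5%). The median of this list was -0.08, but 0.032 without knockout pool 1 (13 genes positive, 9 negative). It was -0.0009 without control pool 2 (11 positive, 11 negative) and 0.003 with library totals only. The feedback inhibitors of the pathway Dusp6 (5.4 and 4.3 against 3.0 and 2.1 CPM) and Spry1 (3.6 and 4.7 against 2.5 and 2.0 CPM) and the immediate early gene Ier3 (11.8 and 15.2 against 8.9 and 9.3 CPM) were lower at an unadjusted p of 0.0229, 0.0288 and 0.0326. The ligand gene Fgf1 was higher in both knockouts, at 2.5 and 6.7 CPM against 1.8 and 2.2 CPM.

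Genes of the germline and of the 2-cell stage are silent in most later cells. Of 39 germline and meiosis genes 14 lay above (35.9%, against 19.1% of all genes) and 4 below (10.3% against 16.5%), with a median of 0.23. Hormad1, a protein of meiotic chromosome axes, had 31.4 and 37.7 CPM in controls and 75.6 and 61.6 CPM in knockouts (log2 0.99, SE 0.19, edgeR adjusted p = 0.293, DESeq2 adjusted p = 0.00580). The tubulin gene Tuba3a had 6.1 and 4.9 against 8.9 and 13.1 CPM (unadjusted p = 0.00456), and the X-linked homeobox gene Rhox9 had 0.5 and 0.8 against 1.8 and 2.0 CPM. Of 20 tested genes of the 2-cell stage 6 lay above (30.0%, against 19.1% of all genes) and 1 below (5.0% against 16.5%). Their median was 0.35 (0.14 without knockout pool 1), and 3 of these genes reached 10 CPM in at least 2 pools. Among all genes with a mean of 1 to 5 CPM, 27.4% lay above and 11.7% below, near the shares of this list. Obox6 had 170.8 and 123.4 CPM in controls and 276.7 and 184.9 CPM in knockouts (0.65, SE 0.22), and here knockout pool 1 was the highest. Sp110 was at 0.47 (SE 0.19), Zfp352 at 0.90 (SE 0.37) and Gm8300 at 1.66 (SE 0.50). Near-identical copies can share reads with Obox6, Tuba3a and Gm8300.

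Of 24 heat shock and cytosolic chaperone genes 6 lay above (25%) and 5 below (20.8%), shares near those of all genes (19.1% and 16.5%), with a median of -0.08 (0.0084 with library totals only). The small heat shock gene Cryab had 61.4 and 49.0 CPM in controls and 108.3 and 97.2 CPM in knockouts (log2 0.90, SE 0.18, edgeR adjusted p = 0.297, DESeq2 adjusted p = 0.0124). The inducible Hspa1b (1.7 and 3.6 against 5.0 and 8.0 CPM), Hspa1a (0.1 and 0.3 against 0.8 and 1.0 CPM) and Hspb1 (12.4 and 13.8 against 15.7 and 24.1 CPM) were also higher in both knockouts. Annotated exons overlap another gene's in Eed, Mtf2, Pdia6, Hsp90b1, Ppt1, Krt8, Gata3, Gata6, Otx2 and Gab1 too, and reads there cannot be told apart. Exons of Hspb2 overlap those of Cryab, and Hspa1a and Hspa1b are near-identical copies.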

How the data were processed

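The deposited table holds raw whole-number counts for 35976 genes. Per the labels, RNA of about 20 zona-free embryos per pool was amplified with SMART-Seq v4 and sequenced single-end at 75 bases on a NextSeq 500. The build mm10 and the tools STAR 2.7.6a, RSEM 1.3.1 and fastp 0.21.0 appear in the submitters' processing notes, without their roles. No source used here states how strand was handled, and reads carry no molecular identifiers. Columns were matched to pools by name, and 6 single-embryo libraries were not analysed here.

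Genes passing filterByExpr (16259) were tested for genotype with edgeR 4.0.16 quasi-likelihood (legacy=FALSE) and TMM scaling in R 4.3.3, with Benjamini-Hochberg adjustment at 5%. CPM are on TMM-scaled library sizes, and log2 changes are knockout minus control. DESeq2 1.42.0, limma-voom (limma 3.58.1), other scalings, filters and libraries left out were alternatives. The scripts were tested on simulated data. Positions are from GENCODE M21, whose symbols matched 75.9% of genes. Named genes were Jarid2 and the 5 with the smallest p per direction at a mean of at least 5 CPM. Up to 4 per list by p, the 3 most abundant of the p53 list and a fixed set were also named. Esp24, under that CPM limit, was named by its p alone. Genes such as S100a6 and Plin2 were added after their values were seen. Members and lists were chosen with earlier results of these data known.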

Additional observations from a re-analysis of the deposited data

How the results depend on the processing

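The number of genes past 5% fell from 1 to 0 with RLE, upper quartile or library-total scaling, edgeR's legacy=TRUE, no filter, a minimum of 10 CPM or robust=TRUE. It was 71 with DESeq2 (64 higher, 7 lower). Jarid2 then stood at -1.57 (adjusted p = 0.0544), -1.50 (0.0597), -1.47 (0.0592), -1.55 (0.0794), -1.56 (0.0884), -1.50 (0.13) and -1.55 (0.0592) in edgeR, in the order of those 7 settings. Leaving out 1 pool gave 11 to 417 genes, of which 8 to 287 were higher and 3 to 130 lower, with Jarid2 from -1.73 to -1.40; the lone pool is assumed to vary like the others, and 417 came without knockout pool 1.

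With the replicate number as a block, 1 gene passed 5%, with Jarid2 at -1.56 (edgeR adjusted p = 0.0342). Deviations of same-numbered pools correlated at 0.32 over 2 pairs, and no label says that the numbers pair the pools.

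Of 107 single genes, 7 reversed; DESeq2 gave no adjusted p to 3, which are not counted under it. Leaving out 1 pool at a time gave Ezh2 from -0.046 (without knockout pool 2) to 0.18, Trp53 from -0.27 (without knockout pool 1) to 0.25, Gata3 from -0.28 to 0.28 (without control pool 2), Gab1 from -0.088 (without knockout pool 1) to 0.14, Sfmbt2 from -0.21 (without knockout pool 2) to 0.43, Jade1 from -0.14 (without control pool 1) to 0.34 and Smoc1 from -0.20 (without knockout pool 2) to 0.43. Trp53 was also at -0.0054 with RLE, -0.0061 with DESeq2, -0.0069 with voom and -0.0069 with the block, and Gata3 at 0.026 with upper quartile scaling, 0.070 with library totals and 0.037 at a minimum of 10 CPM. The cause was not tested. Alternatives for the medians of lists and of chromosome 13 were chosen after seeing the data. The median of all genes was 0.10 with library totals, and that of the inner cell mass list was then 0.0014. With 2 pools a genotype, differences at the size of the spread between pools were not detectable.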

Other observations

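Stress and repair genes outside the groups above did not share a direction. The integrated stress response slows translation when amino acids or folding capacity run short. Of 35 of its genes 6 lay above both controls in both knockouts (17.1%, against 19.1% of all genes) and 9 below (25.7% against 16.5%). Their median was -0.08, but 0.029 without control pool 1. Cbs, which makes cystathionine, had 23.3 and 24.1 CPM in controls and 31.4 and 45.1 CPM in knockouts (log2 0.69, SE 0.21). The transcription factor gene Atf3 had 0.4 CPM in each control and 1.0 and 1.7 CPM in knockouts. The cystine transporter gene Slc7a11 was near absent, at 0.2 and 0.6 CPM against 0.04 CPM in each knockout. Ddit4, an inhibitor of mTOR, was high in knockout pool 2 only, at 29.7 CPM against 12.5 CPM in the other knockout and 11.8 and 11.4 CPM in controls. Of the repair genes, Ogg1, the glycosylase for oxidised guanine, had 12.1 and 8.8 CPM against 5.9 and 5.2 CPM (-0.90, SE 0.27), and Brca2 had 59.6 and 60.3 against 79.7 and 75.5 CPM (0.37, SE 0.17).

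Zfp57, the zinc finger protein that protects imprints, had 14.8 and 19.3 CPM in controls and 12.1 and 9.2 CPM in knockouts (log2 -0.68, SE 0.24). Zfp42, the pluripotency marker Rex1 that also acts on Xist, had 265.1 and 280.9 against 213.8 and 195.7 CPM (-0.41, SE 0.16). Serpine2, a secreted protease inhibitor gene, had 75.3 and 82.4 against 130.5 and 133.5 CPM (0.74, SE 0.16, DESeq2 adjusted p = 0.0268). It is a member of the cumulus cell list, whose defining markers Has2, Ptgs2 and Ptx3 had 0 counts in all pools. S100a6, a calcium-binding protein gene chosen after its values were seen, had 9.0 and 8.9 against 17.8 and 34.7 CPM (1.55, SE 0.30). None of these genes passed 5% in edgeR.

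The sign of the difference moved with abundance. Genes with a mean under 0.5 CPM had a median log2 change of 0.28 and lay above both controls in 26.1% and below in 9.72% of cases. Those with 100 CPM or more had a median of -0.10, with 8.21% above and 23.8% below. With at least 10 counts in each pool of the other genotype, 11 genes had 0 counts in both controls and 2 had 0 counts in both knockouts.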
